A study of Homo sapiens with 12 samples.

Results

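Transcripts of 10 enzymes that make serine, folate-bound carbon units, cysteine, asparagine and proline were followed in K562 cells exposed to dasatinib. K562, a human line from chronic myeloid leukaemia, depends on the fusion kinase BCR-ABL1, and dasatinib inhibits ABL and SRC family kinases. The medium held 10% fetal bovine serum during growth and 0.1% during treatment, when the cells received 0.2% DMSO for 24 h or 100 nM dasatinib for 4 h, 8 h or 24 h. Each of the 4 groups had 3 Illumina BeadChip arrays, 12 in all, which are called A, B and C within a group after the letters of the deposited columns. The enzymes were PHGDH, PSAT1, PSPH, SHMT2, MTHFD2, ASNS, CTH, CBS, ALDH18A1 and PYCR1. They were taken by name as enzymes of amino acid and folate carbon metabolism, with earlier results of these data known. The condition was that all 3 arrays of 1 or more groups gave a probe a detection p under 0.05. All 10 passed, out of 10208 genes that passed the same filter. The 10 are annotated by 17 probes, of which 16 passed. The exception was 1 of 2 PSAT1 probes, which was detected on 0 of 12 arrays.

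Serine is made from a glycolytic intermediate by PHGDH, PSAT1 and PSPH in turn. Serine then gives glycine and a folate-bound carbon through SHMT2 and MTHFD2 in mitochondria, gives its carbon skeleton to cysteine through CBS and CTH, and the same cell makes asparagine from aspartate through ASNS and proline from glutamate through ALDH18A1 and PYCR1. Many of these genes are known targets of ATF4, the transcription factor whose translation rises when amino acids run short or the eIF2 kinases are active, and MYC is also known to drive several of them. Proliferating leukaemia cells draw on these pathways for protein, nucleotide and glutathione synthesis.

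The stretch before the transcription start is printed for ASNS, PHGDH, PSAT1 and CTH, the members that were higher at both 4 h and 8 h, and for MTHFD2, which was not. Each is the 150 bases up to the start, from RefSeq on GRCh38.p14, 5′ to 3′ on the gene's strand. The intervals are chr7:97872409-97872558 on the minus strand for ASNS, and on the plus strand chr1:119711784-119711933 for PHGDH, chr9:78296975-78297124 for PSAT1, chr1:70411118-70411267 for CTH and chr2:74198465-74198614 for MTHFD2. Capitals mark TGATGNAA, the core of the amino acid response element that ATF4 and C/EBP factors are known to bind, and CCAAT, the box known to bind the NF-Y factor.
ASNS: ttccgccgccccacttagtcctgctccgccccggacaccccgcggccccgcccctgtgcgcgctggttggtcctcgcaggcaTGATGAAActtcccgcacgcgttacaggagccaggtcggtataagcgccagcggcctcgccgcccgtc
PHGDH: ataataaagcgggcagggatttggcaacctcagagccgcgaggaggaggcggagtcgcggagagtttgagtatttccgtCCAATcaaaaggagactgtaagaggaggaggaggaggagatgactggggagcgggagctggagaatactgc
PSAT1: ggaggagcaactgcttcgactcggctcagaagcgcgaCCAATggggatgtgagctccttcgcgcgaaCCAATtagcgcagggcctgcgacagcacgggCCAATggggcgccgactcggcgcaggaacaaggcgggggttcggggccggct
CTH: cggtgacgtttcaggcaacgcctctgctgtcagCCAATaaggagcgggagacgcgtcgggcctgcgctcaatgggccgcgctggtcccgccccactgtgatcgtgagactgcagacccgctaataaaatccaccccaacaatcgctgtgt
MTHFD2: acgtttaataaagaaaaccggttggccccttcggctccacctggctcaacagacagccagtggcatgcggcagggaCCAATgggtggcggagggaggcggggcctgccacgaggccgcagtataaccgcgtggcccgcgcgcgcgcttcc

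Both strands of the 250 bases before each start were searched for TGATGNAA, for CCAAT and for CACGTG, the E-box known to bind MYC and MAX. CCAAT was added after the sequences were seen, so its count describes them and is not a test. The sequence table held 7 of the 10 members in 10 entries, with 2 starts for ASNS and 3 for CBS, while PSPH, SHMT2 and PYCR1 had none. TGATGNAA was found in 1 member, at bases -68 to -61 of an ASNS start, and in 3.14% of all 35116 promoter entries. CACGTG was found in 1 member, ALDH18A1, at -136 to -131, against 6.34% of all entries. CCAAT was found in 6 of 10 member entries, from 5 genes, against 32.0% of all entries. PSAT1 had 3 copies, MTHFD2 had 2, and CBS had 2 at 1 start and 1 at another. No TGATGNAA, CACGTG and CCAAT matches overlapped. These matches describe letters in a window, and binding was not measured.

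Array medians of the signal ran from 134 to 160, and 17175 to 18927 of 47314 probes were detected. Arrays of a group correlated at a Pearson r of 0.989 or more over the genes tested, and each array's highest r to another group was 0.968 to 0.985. Of 11 markers fixed for K562 and its erythroid and megakaryocytic character, the 10 with a probe, among them GATA1, HBG1, BCR and ABL1, were detected on 12 of 12 arrays. Among markers of other cell types, 1 of the 4 lymphoid markers on the array (CD3D), 3 of 5 monocytic and granulocytic markers (CD14, LYZ and FCGR3B) and 3 of 5 fibroblast and epithelial markers (COL1A2, DCN and EPCAM) passed the filter. Of these 7, CD3D, LYZ, FCGR3B, COL1A2 and EPCAM were detected on 12 arrays, CD14 on 10 and DCN on 5. Of the others, CD79A was detected on 7 arrays, MS4A1 on 2, COL1A1 on 1, and MPO, ELANE, CD3E and CDH1 on 0. Their part in the results was not tested. Nothing in the labels ties the 3 arrays of a group to independent cultures, and their spread, on which every p-value rests, may be technical. The vehicle was harvested at 24 h alone, so at 4 h and 8 h the effects of the drug and of the time in low serum cannot be told apart, and the 3 comparisons against DMSO share the same 3 control arrays.

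At 4 h, enzymes of serine, cysteine and asparagine synthesis were higher than in DMSO. CTH rose 2.51-fold, PSAT1 2.18-fold, PHGDH 2.07-fold, PSPH 1.64-fold and ASNS 1.44-fold. Thus 5 of 10 enzymes rose and 0 fell at an adjusted p under 0.05 in the limma fit, where 11.9% of all genes tested were called, 5.29% as higher and 6.65% as lower. At an unadjusted p under 0.05, 6 were higher and 1, ALDH18A1, was lower. A rise of at least 2-fold was seen for 3 of them, against 2.02% of all genes that changed this much in either direction. These sizes depend on the scaling: without background correction 1 enzyme, PSAT1, reached 2-fold, against 0.343% of genes, and 0 did on the authors' value table, against 0.216%. The rises remained called in both, but on the authors' value table PSAT1 (0.96 on the log2 scale) and PHGDH (0.93) stood above CTH (0.57). The median log2 fold change of the 10 was 0.44, and that of all genes was 0.01. Groups did not overlap for 6 of 10 enzymes, against 27.7% of all genes. Because the 10 were chosen with earlier results of these data known, shares over all genes, here and below, are description and not a test. In bulk RNA, a change in every cell and a change in the share of cells with the transcript cannot be told apart.

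At 8 h the enzymes diverged. CTH, PSAT1, PHGDH and ASNS were higher than in DMSO, at 2.16-fold, 2.06-fold, 1.96-fold and 1.50-fold, while MTHFD2 was 1.62-fold lower. The count was 4 higher and 1 lower of 10, where 32.0% of all genes were called, 16.6% as higher and 15.4% as lower. CTH and PSAT1 exceeded 2-fold, against 5.18% of all genes, a count of 0 without background correction and on the authors' value table. Arrays did not overlap for 6 of 10 enzymes, against 46.0%. The median of the 10 was 0.05 on the log2 scale, and 0.02 over all genes. At 24 h, when drug and vehicle had the same duration, 2 enzymes were higher, ASNS at 1.33-fold and PHGDH at 1.29-fold, and SHMT2 was 1.31-fold lower. Of all genes, 54.0% were called at this time, 26.9% as higher and 27.1% as lower, so the 3 enzymes called were fewer than that share of 10. No enzyme called reached 2-fold, where 14.6% of all genes did, and arrays did not overlap for 4 of 10 enzymes, against 60.9%. The median of the 10 was -0.05, against 0.01 over all genes.

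**Figure D1:**
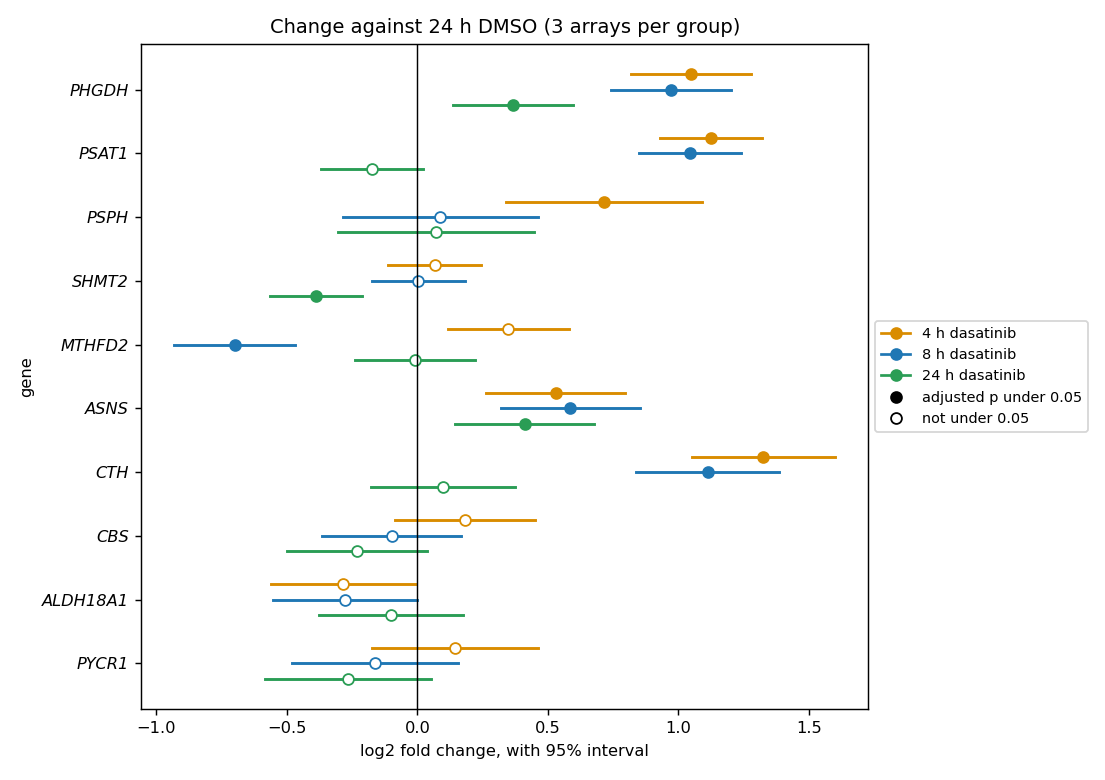
Log2 fold change of each enzyme (rows) against 24 h DMSO on the x axis, at 4 h, 8 h and 24 h of dasatinib, with unadjusted 95% intervals from the limma fit over 3 arrays per group. Filled points have an adjusted p under 0.05: 5 of 10 at 4 h, 5 at 8 h and 3 at 24 h.

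Within the serine branch, PHGDH, the first and committed enzyme, had normalized log2 intensities of 9.86, 10.03 and 9.88 on DMSO arrays A, B and C. They were 10.87, 11.07 and 10.97 at 4 h and 10.78, 10.91 and 11.001 at 8 h. At 24 h they were 10.43, 10.27 and 10.17. The lowest array at 4 h or 8 h therefore lay above the highest at 24 h, and all 3 arrays at 24 h lay above all DMSO arrays. The log2 fold changes against DMSO were 1.05 at 4 h (SE 0.11, adjusted p = 5.1e-05), 0.97 at 8 h (SE 0.11, adjusted p = 3.3e-05) and 0.37 at 24 h (SE 0.11, adjusted p = 0.011). The 24 h call was lost without 24 h array A (0.30, adjusted p = 0.053).

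PSAT1, which transaminates the product of PHGDH, gave 9.66, 9.63 and 9.67 in DMSO and 10.75, 10.76 and 10.82 at 4 h. At 8 h it gave 10.61, 10.69 and 10.80, and at 24 h 9.53, 9.53 and 9.37. The early and late arrays were separated by more than 1 log2 unit, and the 24 h arrays lay below the DMSO arrays without overlap. The rise was 1.12 at 4 h (SE 0.09, adjusted p = 7.5e-06) and 1.04 at 8 h (SE 0.09, adjusted p = 5.5e-06) on the log2 scale. At 24 h the difference was -0.18 (SE 0.09, adjusted p = 0.12), which passed on the authors' value table (-0.13, adjusted p = 0.044). From 8 h to 24 h PSAT1 fell by 1.22 (SE 0.09, adjusted p = 2.0e-06).

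PSPH, which removes the phosphate in the last step, passed against DMSO at 4 h by its brighter probe. That probe gave 7.60, 7.60 and 7.57 in DMSO, 8.34, 8.04 and 8.53 at 4 h, 7.62, 7.44 and 7.98 at 8 h, and 7.98, 7.49 and 7.52 at 24 h. The 4 h arrays lay above all others. The change was 0.71 at 4 h (SE 0.17, adjusted p = 0.019), 0.09 at 8 h (adjusted p = 0.74) and 0.07 at 24 h (adjusted p = 0.75). The 4 h call was lost without DMSO array C (adjusted p = 0.059), 4 h array A (0.053) or 4 h array C (0.073). The dimmer PSPH probe gave 0.61 at 4 h and 0.66 at 8 h with an SE of 0.29, and neither passed over the 17625 probes tested (adjusted p = 0.27 and 0.12). The probes thus differ in their 8 h value, and the fall from 4 h to 8 h, -0.63 at the brighter probe (adjusted p = 0.037), was 0.06 at the dimmer. That fall was lost without 4 h array A or C or 8 h array A or B (adjusted p = 0.085 to 0.13). The genome holds a related pseudogene, PSPHP1, and whether it contributes signal was not tested.

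**Figure D2:**
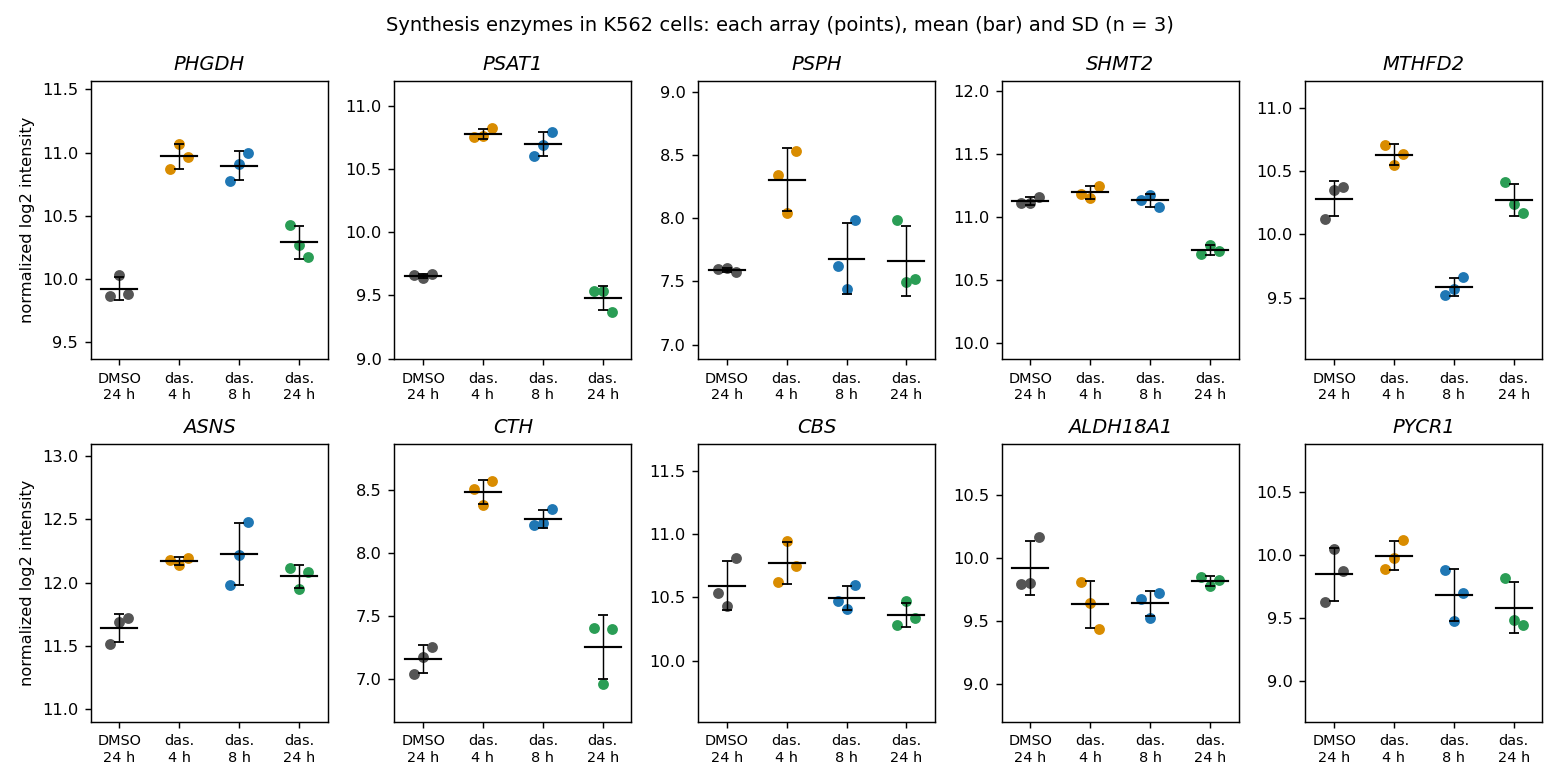
Normalized log2 intensity of each enzyme on every array (points), with the mean (long bar) and SD (error bar, n = 3), for 24 h DMSO and dasatinib at 4 h, 8 h and 24 h; every panel spans the same number of log2 units, and levels are not comparable between panels. PHGDH, PSAT1 and CTH sit high at 4 h and 8 h, and MTHFD2 sits lowest at 8 h.

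Cysteine synthesis showed a change at its second enzyme. CTH, which splits cystathionine into cysteine, gave 7.04, 7.18 and 7.25 in DMSO, 8.51, 8.38 and 8.56 at 4 h, and 8.22, 8.24 and 8.35 at 8 h. At 24 h it gave 7.41, 6.96 and 7.40, a range that encloses the DMSO arrays. The rise was 1.33 at 4 h (SE 0.13, adjusted p = 3.1e-05) and 1.11 at 8 h (SE 0.13, adjusted p = 4.5e-05), and the 24 h value was 0.10 (95% interval -0.18 to 0.37, adjusted p = 0.54). Of the genes tested, 0.823% had a larger absolute change at 4 h. From 8 h to 24 h CTH fell by 1.01 (SE 0.13, adjusted p = 9.4e-05). The sizes were smaller under other scalings, all of them called. At 4 h CTH gave 0.83 without background correction and 0.57 on the authors' value table, and at 8 h 0.68 and 0.46. On the authors' value table it fell by 0.42 from 8 h to 24 h. All 3 CTH probes were higher at 4 h, by 1.00 to 1.33, and at 8 h, by 0.64 to 1.15, with adjusted p of 0.029 or less over probes.

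CBS, which condenses serine with homocysteine in the step before CTH, did not pass against DMSO at any time. It gave 10.54, 10.43 and 10.81 in DMSO and 10.62, 10.95 and 10.75 at 4 h, with overlapping arrays. Its log2 fold changes were 0.18 at 4 h (95% interval -0.09 to 0.45), -0.10 at 8 h (-0.37 to 0.17) and -0.23 at 24 h (-0.50 to 0.04). CBS at 24 h was lower than at 4 h, by -0.41 (adjusted p = 0.016), a call lost without 4 h array B (adjusted p = 0.066) or 24 h array A (0.056). The genome build also lists a near-identical copy, CBSL, and whether it contributes signal was not tested.

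ASNS, which makes asparagine from aspartate with glutamine as nitrogen donor, was higher at all 3 times. It gave 11.52, 11.69 and 11.72 in DMSO, 12.18, 12.14 and 12.20 at 4 h, 11.99, 12.22 and 12.48 at 8 h, and 12.12, 11.95 and 12.09 at 24 h. All 9 dasatinib arrays lay above the 3 DMSO arrays. The rises were 0.53 at 4 h (SE 0.12, adjusted p = 0.014), 0.59 at 8 h (SE 0.12, adjusted p = 0.0032) and 0.41 at 24 h (SE 0.12, adjusted p = 0.013). Without DMSO array A the calls at 4 h (0.47, adjusted p = 0.057) and at 24 h (0.35, adjusted p = 0.053) were lost. Between dasatinib times no ASNS difference passed, and the 24 h minus 4 h value was -0.12 (95% interval -0.39 to 0.15). The dimmer ASNS probe rose by 0.56 at 4 h (adjusted p = 0.023 over probes) and gave 0.29 at 8 h and 0.26 at 24 h (adjusted p = 0.14 and 0.13). ASNS is the member whose printed stretch holds TGATGAAA.

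The mitochondrial folate enzymes moved apart from each other. MTHFD2, the mitochondrial dehydrogenase and cyclohydrolase of methylene-tetrahydrofolate, gave 10.12, 10.35 and 10.38 in DMSO and 10.71, 10.55 and 10.64 at 4 h. At 8 h it gave 9.52, 9.57 and 9.66, below every array of the other groups, and at 24 h 10.42, 10.24 and 10.17. Against DMSO it fell by 0.70 at 8 h (SE 0.11, adjusted p = 0.00037), and at 24 h the value was -0.01 (95% interval -0.24 to 0.22, adjusted p = 0.95). The 4 h value of 0.35 just missed the threshold (SE 0.11, adjusted p = 0.052), although the arrays did not overlap. It passed without background correction, with an offset of 50, on the authors' value table and with the mean of all probes (adjusted p = 0.013 to 0.047). From 4 h to 8 h MTHFD2 fell by 1.05 (SE 0.11, adjusted p = 0.00013), a size exceeded by 0.872% of genes tested, and from 8 h to 24 h it rose by 0.69 (SE 0.11, adjusted p = 0.00040).

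SHMT2, which moves a carbon of serine onto folate in mitochondria, gave 11.11, 11.11 and 11.16 in DMSO, 11.18, 11.15 and 11.25 at 4 h, and 11.14, 11.18 and 11.08 at 8 h. Its 24 h arrays, at 10.70, 10.78 and 10.73, lay below all the others. The values against DMSO were 0.07 at 4 h (95% interval -0.11 to 0.24) and 0.00 at 8 h (-0.17 to 0.18), and SHMT2 fell by 0.39 at 24 h (SE 0.08, adjusted p = 0.0015). From 8 h to 24 h it also fell by 0.39 (adjusted p = 0.0029).

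Proline synthesis enzymes did not pass against DMSO at any time. ALDH18A1, which reduces glutamate toward proline, was -0.29 at 4 h, -0.28 at 8 h and -0.10 at 24 h (SE 0.13, adjusted p = 0.18, 0.12 and 0.53). At 8 h its arrays lay below the DMSO arrays without overlap. Its DMSO array C stood at 10.17, while A and B gave 9.79 and 9.80. PYCR1, the mitochondrial reductase of the final step, gave 0.15, -0.16 and -0.27 at the 3 times (SE 0.15, adjusted p = 0.62, 0.44 and 0.15), and its arrays overlapped DMSO at each time. With the mean of its 3 probes PYCR1 was lower at 24 h (-0.41, adjusted p = 0.0059) and from 8 h to 24 h (-0.35, adjusted p = 0.021). The probe behind the largest change, which was detected on 11 of 12 arrays, fell by 0.59 at 24 h (adjusted p = 0.019 over probes). The PYCR1 probes correlated with each other at a Pearson r of 0.18 to 0.40 over 12 arrays, against 0.88 to 0.95 for the CTH probes.

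**Figure D3:**
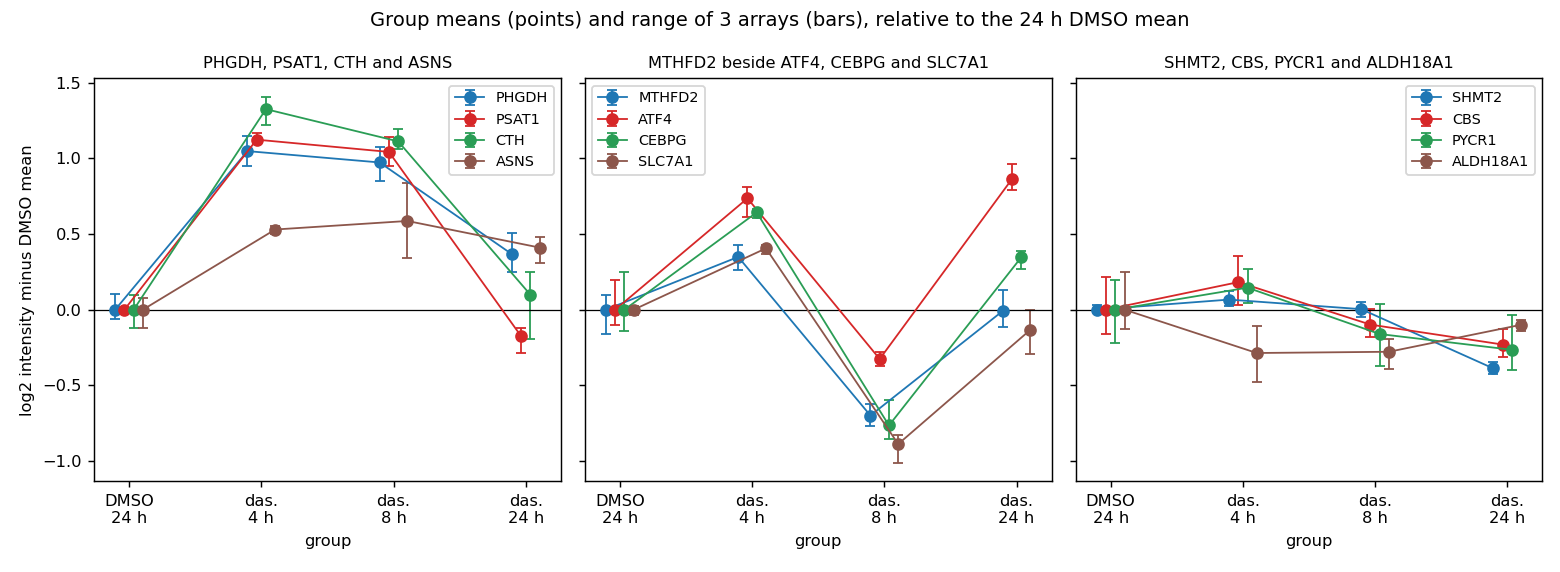
Group means (points) and the range of 3 arrays (bars) as log2 intensity minus the DMSO mean, for 24 h DMSO and dasatinib at 4 h, 8 h and 24 h. PHGDH, PSAT1 and CTH are about 1 unit up at 4 h and 8 h; MTHFD2 dips by 0.70 at 8 h beside ATF4, CEBPG and SLC7A1; the means of SHMT2, CBS, PYCR1 and ALDH18A1 lie between -0.39 and 0.18.

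Comparisons between the dasatinib times do not take differences from the DMSO arrays. Time in the drug and time in low serum changed together in them and cannot be told apart. Those arrays still enter the normalization and the estimate of spread behind each SE and p-value. With only the compared groups in the limma fit, the PSPH call from 4 h to 8 h was lost (adjusted p = 0.079). From 4 h to 8 h, MTHFD2 and PSPH fell and 0 of 10 enzymes rose by the limma fit, also at an unadjusted p under 0.05, where 11.3% of all genes were called, 5.30% as lower and 5.98% as higher. MTHFD2 fell by over 2-fold, against 1.08% of genes, but not without background correction or on the authors' value table, where 0 enzymes did. Arrays did not overlap for 5 of 10 enzymes, against 30.2%. From 8 h to 24 h, PSAT1, CTH, PHGDH and SHMT2 fell and MTHFD2 rose, where 35.7% of all genes were called, 18.3% as lower and 17.5% as higher. PSAT1 and CTH fell by over 2-fold, against 4.79% of genes, and 1 enzyme did so under each of 5 other scalings and summaries. Arrays did not overlap for 6 of 10 enzymes, against 49.4%. PHGDH fell by 0.61 over this interval (SE 0.11, adjusted p = 0.00095). Between 4 h and 24 h, 8 of 10 enzymes fell and 0 rose, also at an unadjusted p under 0.05, where 45.7% of all genes were called, 22.6% as lower and 23.2% as higher. PSAT1 and CTH fell by over 2-fold, against 9.82% of genes, and 1 enzyme did so without background correction or on the authors' value table. Arrays at 4 h and 24 h did not overlap for 9 of 10 enzymes, against 53.4% of all genes, and the median change of the 10 was -0.43, against 0.00 over all genes. PSAT1 fell by 1.30 (SE 0.09, adjusted p = 4.4e-07), CTH fell by 1.23 (SE 0.13, adjusted p = 9.7e-06; -0.54 on the authors' value table) and PHGDH fell by 0.68 (SE 0.11, adjusted p = 0.00023). The exceptions were ASNS and ALDH18A1, and ALDH18A1 gave 0.19 (95% interval -0.09 to 0.46). The calls for MTHFD2 (-0.36, adjusted p = 0.015) and PYCR1 (-0.41, adjusted p = 0.037) were lost without single arrays. For MTHFD2 these were 4 h array A (adjusted p = 0.053) and 24 h array C (0.060). For PYCR1 they were 4 h arrays B (0.069) and C (0.11) and 24 h arrays B (0.11) and C (0.12). The PYCR1 call was also lost under cyclic loess (0.056) and without the detection filter (0.065).

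**Figure D4:**
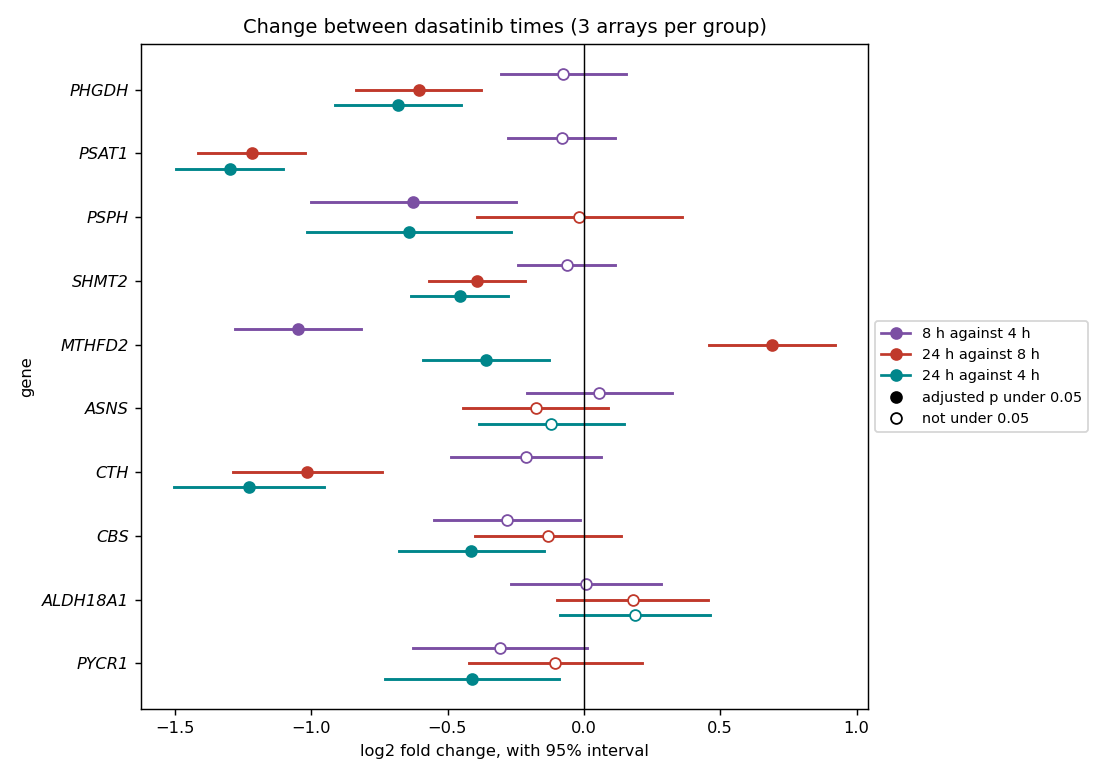
Log2 fold change of each enzyme (rows) between dasatinib times on the x axis, with unadjusted 95% intervals from the limma fit over 3 arrays per group; filled points have an adjusted p under 0.05. From 4 h to 24 h 8 of 10 enzymes are lower, and MTHFD2 is the enzyme that rises from 8 h to 24 h.

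ATF4 transcripts were higher than in DMSO at 4 h, lower at 8 h and higher again at 24 h. ATF4 gave 12.39, 12.40 and 12.69 in DMSO, 13.28, 13.11 and 13.31 at 4 h, 12.13, 12.17 and 12.22 at 8 h, and 13.29, 13.46 and 13.33 at 24 h. It rose by 0.74 at 4 h (SE 0.11, adjusted p = 0.00078), fell by 0.33 at 8 h (adjusted p = 0.035, and 0.10 with the mean of all its probes) and rose by 0.86 at 24 h (adjusted p = 2.7e-05). At 4 h, when ATF4 mRNA was higher, 5 of 10 enzymes were higher and 0 lower. At 8 h ATF4 mRNA was lower by its brightest probe and MTHFD2 was lower, while PHGDH, PSAT1, CTH and ASNS were higher. At 24 h ATF4 mRNA was higher, PHGDH and ASNS were higher, SHMT2 was lower, and 7 enzymes, among them PSAT1 and CTH, did not pass. A link between ATF4 and the enzymes was not tested. ATF4 protein was not measured. Of 15 measured genes of the ATF4 stress response list, 8 were higher and 0 lower at 4 h, 2 higher and 4 lower at 8 h, and 9 higher and 1 lower at 24 h. Over all genes, 5.29% were called higher and 6.65% lower at 4 h, 16.6% and 15.4% at 8 h, and 26.9% and 27.1% at 24 h. In the ATF4 list SESN2, a stress-induced sestrin, rose by 2.03 at 4 h and 1.09 at 24 h from a level detected on 1 of 3 DMSO arrays. SESN2 passed the detection filter through the dasatinib groups alone. CEBPB, a partner of ATF4, rose by 1.31 at 4 h, 0.42 at 8 h (adjusted p = 0.0042) and 0.76 at 24 h. DDIT4, an mTORC1 inhibitor, rose by 1.21 at 4 h and fell by 0.76 at 8 h. The SESN2 rises were 0.41 and 0.17 on the authors' value table, both called. TRIB3, a pseudokinase induced by ATF4, fell by 1.40 at 24 h. MYC was lower throughout, by -1.78 at 4 h, -1.37 at 8 h and -1.04 at 24 h (SE 0.13).

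The pathways hold many genes besides the 10. Of 18 measured genes of serine, glycine and folate metabolism outside the 10, 0 rose and 0 fell at 4 h at an adjusted p under 0.05 in the limma fit (2 and 0 at an unadjusted p under 0.05), and their median was 0.07. At 8 h 3 were higher and 4 lower, and at 24 h 7 higher and 6 lower. The shares of all genes called were 11.9%, 32.0% and 54.0% at 4 h, 8 h and 24 h. Among the 7 were AMT, FTCD and FOLR1, which passed the detection filter through the 24 h group alone. Their place in that count is thus partly fixed by the filter. The reduced folate carrier SLC19A1 fell by 1.57 at 8 h and fell by 1.93 at 24 h (SE 0.20). The folate receptor FOLR1 was higher at 24 h, but it was detected on 1 of 3 DMSO arrays. Its size is not fixed by these data, at 2.07 here and 0.38 on the authors' value table. SLC19A1 was -0.79 there at 24 h, and called. GCSH, the lipoyl carrier of the glycine cleavage system, fell by 1.35 at 24 h and DHFR2, a dihydrofolate reductase, rose by 1.33 (0.63 on the authors' value table). MTHFD1, the cytosolic trifunctional folate enzyme, fell by 1.18 at 24 h, and MTHFD1L, the mitochondrial formate-producing enzyme, fell by 0.86. Both were chosen after their values were seen, as the named relatives of MTHFD2, whose 24 h value was -0.01.

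Around cysteine, 16 measured genes of the methionine cycle, transsulfuration and glutathione gave 2 higher and 1 lower at 4 h, 3 and 2 at 8 h, and 4 and 5 at 24 h. The shares of all genes called were 11.9%, 32.0% and 54.0%, so at 8 h and 24 h calls in this list were about as frequent as over all genes. GCLC, the catalytic subunit of the enzyme that commits cysteine to glutathione, rose by 0.74, 0.96 and 1.25 at 4 h, 8 h and 24 h (SE 0.13), and at 24 h by 0.57 on the authors' value table. GCLM, the modifier subunit of that enzyme, rose by 0.42 at 4 h (adjusted p = 0.023) but fell by 0.67 at 24 h (SE 0.11, adjusted p = 0.00018). GCLM was chosen after its values were seen. CSAD, which leads cysteine sulfinate to taurine, rose by 1.35 at 24 h (0.31 on the authors' value table), and the sulfurtransferase TST rose by 0.92 at 8 h and 1.00 at 24 h. MAT2A, which makes S-adenosylmethionine, fell by 0.60 at 4 h, fell by 0.93 at 8 h and fell by 0.39 at 24 h (SE 0.10). At 24 h, when GCLC was higher and GCLM lower, CTH gave 0.10.

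Of 13 measured genes of aspartate, glutamate and glutamine metabolism, 0 rose at 4 h and 1 fell, 0 rose and 3 fell at 8 h, and 2 rose and 7 fell at 24 h, with a median of -0.49 at 24 h. The shares of all genes called were 11.9%, 32.0% and 54.0% at the 3 times. Of the 2 that rose, ASRGL1 passed the detection filter through the 8 h and 24 h groups alone, so its place in the count is partly fixed by the filter. PPAT, the first enzyme of purine synthesis, fell by 0.79 at 4 h and fell by 1.19 at 8 h. CTPS1, which makes CTP with glutamine nitrogen, fell by 1.03 at 24 h and GFPT1, of hexosamine synthesis, fell by 1.03. ADSS1, an adenylosuccinate synthase, rose by 1.88 at 24 h (0.67 on the authors' value table and 0.70 with the mean of its probes). ASNS, which also takes nitrogen from glutamine, was higher by 0.41 at that time by its brighter probe, a call lost without DMSO array A. Its dimmer probe gave 0.26 and did not pass. Of 8 measured genes of proline, ornithine and arginine metabolism, 0 passed at 4 h (at an unadjusted p under 0.05, 0 were higher and 2 lower), 1 rose and 2 fell at 8 h, and 1 rose and 3 fell at 24 h. At 8 h and 24 h calls in this list were about as frequent as over all genes. OAT, which links ornithine to the proline precursor, rose by 0.74 at 8 h and 1.62 at 24 h, while the arginase ARG2 fell by 1.78 (-0.61 on the authors' value table) and the polyamine enzyme ODC1 fell by 1.13 at 24 h. PYCR3, a cytosolic reductase of the PYCR family, fell by 0.58 at 24 h (SE 0.22, adjusted p = 0.045), a call lost without background correction (0.053) and on the authors' value table (0.085).

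Of 14 measured amino acid transporters, 3 rose and 0 fell at 4 h, 2 rose and 6 fell at 8 h, and 4 rose and 4 fell at 24 h. The shares of all genes called were 11.9%, 32.0% and 54.0%, and at 24 h calls among transporters were about as frequent. SLC1A4 and SLC6A9 passed the detection filter through the dasatinib groups alone, and SLC43A2 through the 24 h group alone. All were counted as higher in those groups, so the counts of rises are partly fixed by the filter. SLC1A4, which carries serine, alanine and other neutral amino acids, was not detected on any DMSO array. It was at least 1.67-fold higher at 4 h, at least 1.88-fold at 8 h and at least 2.82-fold at 24 h. For this bound, each DMSO value was replaced by the lowest level among detected probes of its array if that was higher. These bounds are on the background-corrected scale; on the authors' value table SLC1A4 differed by 0.15, 0.18 and 0.31 in log2 units, all called. The glycine carrier SLC6A9, detected on 1 of 3 DMSO arrays, was higher at 4 h, 8 h and 24 h. Its size depends on how values near background are treated, at 3.71 at 24 h here and 1.16 on the authors' value table. The glutamine carrier SLC1A5 fell by 1.43 at 8 h and SLC7A6, a carrier of cationic and neutral amino acids, fell by 1.86 at 24 h (-0.81 on the authors' value table).

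**Figure D5:**
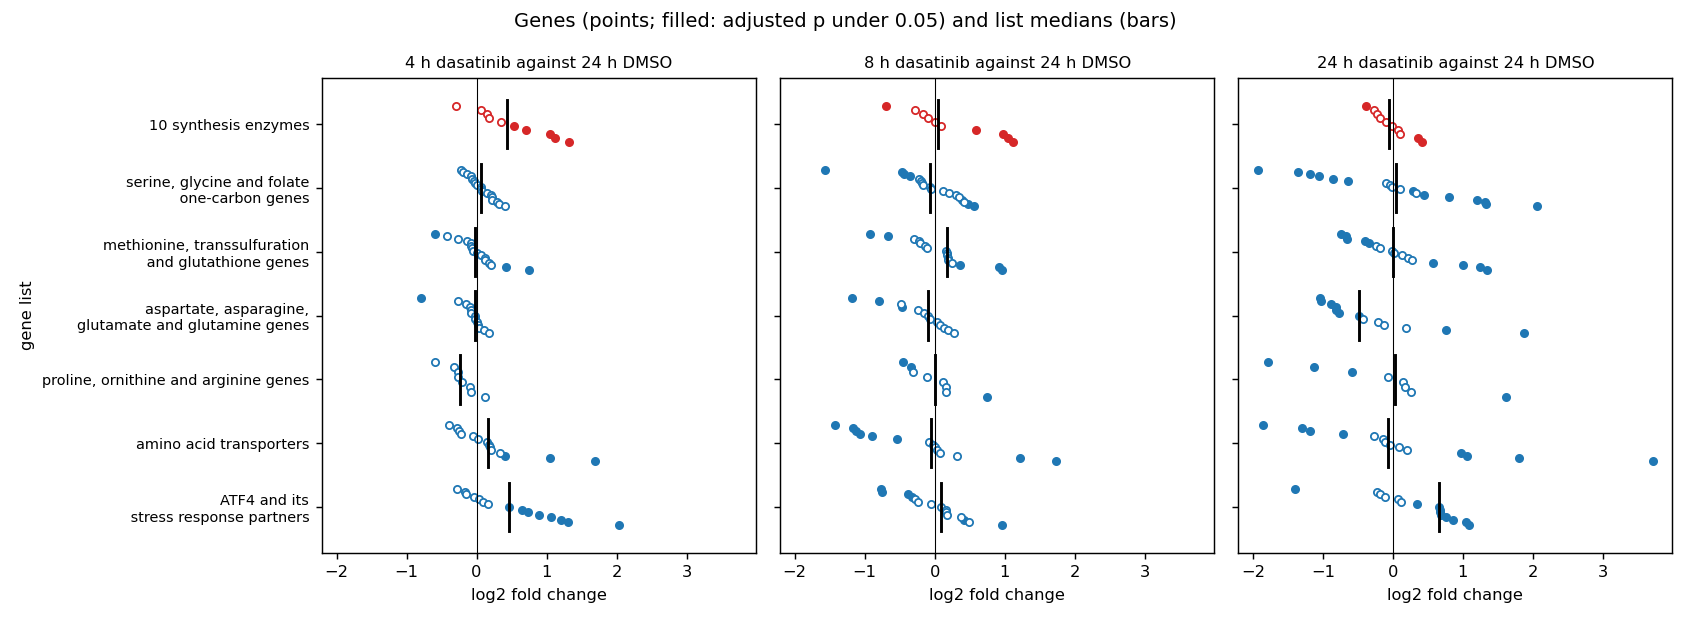
Log2 fold change against 24 h DMSO (x axis) of the 10 synthesis enzymes (red) and of the measured genes of 6 related lists (blue) at 4 h, 8 h and 24 h of dasatinib; filled points have an adjusted p under 0.05 and bars are list medians. At 4 h the enzymes have a median of 0.44 and the ATF4 list 0.46, while the other lists lie between -0.24 and 0.16.

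Over the 12 arrays, PHGDH, PSAT1 and CTH correlated with one another at a Pearson r of 0.91 to 0.96. The arrays form 4 groups of 3, so these values mainly restate the shared group pattern. Among all other genes, MT1X, a metallothionein, had the highest r with PSAT1 (0.99) and with CTH (0.97), and it was higher by 3.58 at 4 h and 3.22 at 8 h (1.71 and 1.43 on the authors' value table) and gave -0.20 at 24 h. For PHGDH the nearest was SQSTM1, an autophagy receptor, at an r of 0.95. For MTHFD2 they were the cationic amino acid carrier SLC7A1 (0.98), the C/EBP family factor CEBPG (0.93) and SLC3A2, the heavy chain of amino acid exchangers (0.93). SLC7A1 rose by 0.41 at 4 h and fell by 0.89 at 8 h, and CEBPG rose by 0.64 and fell by 0.77. For PSPH the nearest was SLC30A2, a zinc transporter, at 0.91, followed by the tRNA synthetases GARS1 (0.89) and MARS1 (0.88). For SHMT2 the nearest were PFDN6 and STOML2 (0.98), and for ASNS the highest was SFR1 at 0.91. The highest values for CBS, ALDH18A1 and PYCR1 were 0.88, 0.88 and 0.89.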

How the data were processed

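Illumina BeadChip probe levels were measured in K562 cells in 4 groups of 3 arrays. Per the file headers, the deposited table gives an intensity and a detection p-value for each probe and array. The intensities carry their background, and no normalization had been applied to them. The authors also deposited a value table on a log2 scale, quantile-normalized as its values show, for which the sources used here give no method. It served as an alternative. Ranks of each signal column were identical to those of 1 column of that table (rank correlation 1), in its own group, and letters A, B and C matched replicates 1, 2 and 3. BMS in the headers was read as dasatinib.

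Intensities were background-corrected, offset by 16 and quantile-normalized with neqc (limma 3.58.1, R 4.3.3) and taken to log2. Background correction widens and the offset narrows changes of dim probes. The probe with the highest mean represented a gene. The model held a mean for each group, over all 12 arrays (8 residual and 4.08 prior degrees of freedom), with 6 comparisons. Two-sided p-values were adjusted by Benjamini-Hochberg over 10208 genes, called at 0.05. SE and 95% intervals come from this fit. The number of arrays limits precision. The letters were not treated as pairs, because r of deviations exceeded 0.1 in only 4 of 18 same-letter pairs. Still, 10 of 12 arrays correlated best with arrays of their own letter, and a fit with the replicate as a block was run as an alternative. The members and lists were chosen with earlier results of these data known. Named were all members, up to 4 called genes with the largest change per list, the 3 genes most like each member, ATF4 and MYC. Not every gene this rule takes is described.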

Additional observations from a re-analysis of the deposited data

Results flagged for a closer look

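By the direct comparison of 24 h with 4 h dasatinib, 8 of the 10 enzymes differed at an adjusted p under 0.05. Of all genes, 45.7% differed. The effects against DMSO at 4 h and 24 h share the same control arrays, so this comparison is also their difference. Between these times the duration of the drug and of low serum changed together, and their effects cannot be told apart. In log2 units, the 24 h minus 4 h difference was -1.30 for PSAT1, -1.23 for CTH, -0.68 for PHGDH and -0.64 for PSPH. It was -0.46 for SHMT2, -0.41 for CBS, -0.41 for PYCR1 and -0.36 for MTHFD2. For PSAT1 the value went from 1.12 at 4 h to -0.18 at 24 h, and for PHGDH from 1.05 to 0.37. SHMT2 went from 0.07, which was not called, to -0.39, which was called. Groups of 3 arrays are too small for a test of single outlying arrays.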

How the results depend on the processing

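The enzymes' log2 fold changes kept their direction wherever a call was made under the 9 alternatives run. Without background correction, with an offset of 50, under cyclic loess, or with only the compared groups in the fit, 59 of 60 fold changes kept their side of the threshold, and their direction if called. The same held with the replicate block. The sign of a value that was not called could change and still be counted as kept. ASNS from 4 h to 8 h was 0.06 here and as low as -0.11 under another setting, and SHMT2 at 8 h was 0.00 and as low as -0.07. The number was 58 of 60 on the authors' value table and without the detection filter, 56 of 60 with the mean of all probes, and with an array left out 342 values stayed and 18 lost their call. At 4 h, 5 to 6 enzymes were higher under alternatives and 4 to 5 with an array left out. At 24 h, 2 enzymes were lower, in place of 1, on the authors' value table and with the mean of all probes, and 1 to 2 were higher with an array left out. From 4 h to 8 h, 1 enzyme was lower, in place of 2, without the detection filter, with the mean of all probes and with only the compared groups, and 1 to 2 with an array left out. This enzyme was MTHFD2, since the PSPH call was the one lost. From 4 h to 24 h, 6 to 7 were lower with an array left out, in place of 8. The replicate block changed 1 call, PYCR1 from 4 h to 24 h (adjusted p = 0.055), and of 12 arrays 10 deviated most like arrays of their own letter, a hint from the data and not from the design. Over all genes, 1219 calls at 4 h became 794 without DMSO array C, and 1151 calls from 4 h to 8 h became 718 with only the compared groups and 703 to 897 with an array left out (765 without 4 h array C, 727 without 8 h array A and 703 without 8 h array B). The median over all genes moved by less than 0.1 under each alternative. The causes of these losses were not tested, beyond fewer arrays in the fit when 1 was left out. Sizes moved more than calls. The 4 h rise of CTH was 1.33, 0.83 without background correction and 0.57 on the authors' value table.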
